A study of Danio rerio with 8 samples.

Results

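In 59 of the 24345 genes listed for the larval zebrafish trunk, the deficit under benzo[k]fluoranthene (BkF) deepened step by step between 48 and 96 hours post fertilization (hpf). These genes were chosen by their own values in the 8 samples. Each had a mean of 50 or more normalized counts over the samples, which 19143 genes had. With r the log2 ratio of BkF to control, computed on values plus 1, r lay above -0.5 at 48 hpf, at or below -0.5 at 72 hpf and at or below -1.5 at 96 hpf, and it fell at each step from 48 to 60, 72 and 96 hpf. The rule gave 65 genes. Of these, 6 were set aside because their symbols begin with the name of a collagen, troponin, potassium channel or forkhead family (tnnt2d, foxa3, COL11A1, KCNK18, tnni1d and col14a1b), and 59 were kept. Of the 59 members, 37 carried a gene name, 8 a clone name and 14 no symbol.

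RNA was sequenced from the distal trunk of Tropical 5D wildtype larvae, cut where the pigment breaks off toward the tail, so that the place of the extra fin was included. BkF is a polycyclic aromatic hydrocarbon, and the study, by its title, concerns fin duplication through the aryl hydrocarbon receptor, a transcription factor that such compounds activate. The chorion was removed from all embryos at 4 hpf, and a single static exposure began at 6 to 8 hpf in 100 µL of medium per well. Animals were kept in the dark at 28.5 °C. The control group received 1% DMSO, the solvent, and was sampled at 48, 60, 72 and 96 hpf. The BkF group received 12 µM BkF and was sampled at the same 4 ages, and whether its wells held the same share of DMSO is not given in the sources used here. Each of the 8 samples is 1 deposited column, the authors' mean over 4 pools of 50 animals, so no value below has a replicate error and no difference was tested.

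The column totals lay between 87750209 and 89533865 normalized counts for the controls and between 76456319 and 78634021 for BkF, and the read depth behind them is unknown. Scaled to equal totals, the ratios of all genes lie higher, by 0.183 at 48 hpf and 0.164 at 96 hpf in the median (log2). The trunk label was checked against marker lists. A mean of 50 or more was reached by 65 of 68 matched skeletal muscle genes, 25 of 28 notochord genes and 48 of 50 epidermal genes, against 4 of 24 eye and lens genes, 10 of 29 brain genes and 15 of 40 genes of gut, liver and pancreas. The muscle, notochord and skin of the trunk were thus well represented, and a smaller share of the genes of head and gut reached this level.

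Several members belong to gene families whose roles are well known. Hairy-related (Her) proteins are repressors that Notch signalling induces in neural progenitors, where they hold back proneural factors and keep cells from becoming neurons. Gel-forming mucins are folded in the endoplasmic reticulum with the help of disulfide isomerases, are decorated with sialic acid in the Golgi, and coat the larval skin with mucus. Muscle stores glucose as glycogen, which is built on a glycogenin primer and broken down into the sugar phosphates that glycolysis uses.

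The median log2 ratio of the 59 members was -0.17 at 48 hpf, -0.48 at 60 hpf, -0.96 at 72 hpf and -1.84 at 96 hpf. Over all 19143 genes the median lay at 0.00, 0.01, 0.01 and -0.00. These ratios chose the members, so they are a description only. With equal totals the member median at 48 hpf was 0.01, on the other side of 0. A gene is called lower here when its value was at least 2-fold below that of the control, a log2 ratio of -1 or less. By that measure 0 of the 59 were lower at 48 hpf, which the limit at that age fixes, beside 2.75% of all genes. The number was 5 at 60 hpf beside 3.66% of all genes, 24 at 72 hpf beside 4.92%, and by construction all 59 at 96 hpf beside 7.0%. The whole rule was met by 0.308% of all genes, and a ratio that fell at every step, with no further limit, by 8.88%. At 48 hpf 16 members stood above the control, a count that depends on the scaling, and at 96 hpf 17 had a ratio of -2 or less. The shares of all genes for these counts are not given.

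**Figure D1:**
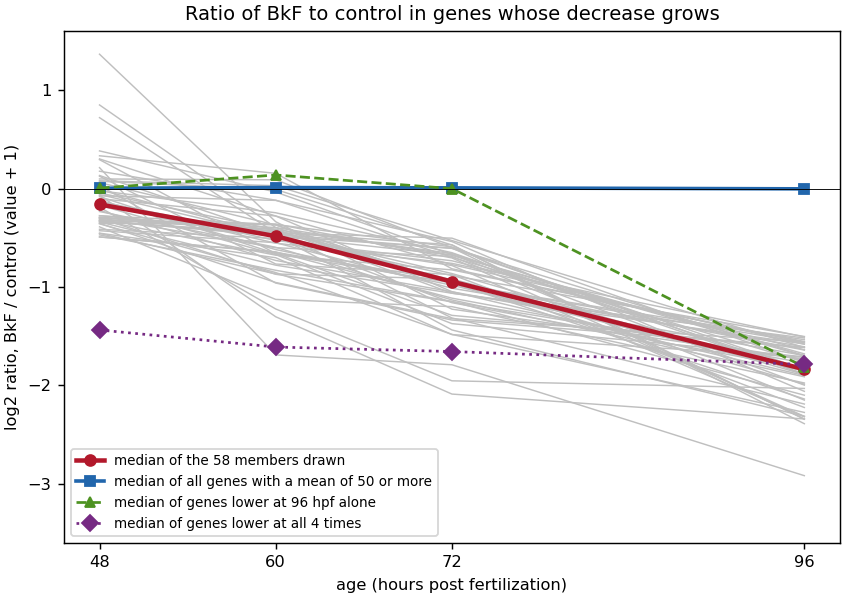
The log2 ratio of BkF to control (vertical axis) is drawn against age in hours post fertilization for 58 members (grey lines), with their median, the median of all genes with a mean of 50 or more, and the medians of genes lower at 96 hpf alone and of genes lower at all 4 times. The member median passes from -0.16 at 48 hpf to -1.84 at 96 hpf, while the median of all genes stays near 0; the gene listed at 0 under BkF at 96 hpf is not drawn.

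The limit at 96 hpf cut through a continuous run of genes. Just inside it were IRX5 (-1.504), PPP1R3C (ENSDARG00000014554, -1.51) and ENSDARG00000091397 (-1.52). Just outside it were actc1a (-1.49), which encodes a sarcomeric actin, SOX2 (-1.48), a factor of neural progenitors, and a gene with the clone name si:ch211-236l14.4 (-1.48).

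The last interval held the largest drop of the ratio in 44 of 59 members, or 74.6%. It did so in 40.2% of all genes and in 63.0% of the 535 genes with a ratio of -1.5 or less at 96 hpf. That interval was also the longest, 24 hours against 12. The median step of the members was -0.36 from 48 to 60 hpf, -0.42 from 60 to 72 hpf and -0.88 from 72 to 96 hpf. Per 12 hours these are -0.36, -0.42 and -0.44, nearly even in the median. The rule asks for a fall at each step and sets limits at 3 ages, so these sizes are a description only. Single members differed, with steps of -0.08, -0.56 and -1.77 over the intervals in her4.4 and -1.90, -0.10 and -1.13 in vmo1a.

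From 48 to 96 hpf, most members fell at least 2-fold under BkF and ended within 2-fold of their start in the controls. A change with age is called a rise or a fall here when it reached 2-fold between 48 and 96 hpf. The ages in between do not enter. Controls rose in 12 members, beside 4.83% of all genes, and fell in 1, beside 1.49%. The BkF samples fell in 46 members, beside 5.38% of all genes, and rose in 2, beside 5.41%. The median change of the members over this span was 0.03 (log2) in the controls and -1.59 under BkF. These changes are not independent of the rule, since their difference is the ratio at 96 hpf minus that at 48 hpf.

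Crossing both changes gave 43 members, beside 4.62% of all genes, whose controls ended within 2-fold of their 48 hpf level while BkF fell. In between, some of these controls moved further, such as pou3f1, at 1537 at 48 hpf and 478 at 72 hpf. A further 8 rose in the controls and ended within 2-fold under BkF, beside 1.68% of all genes. Another 2 rose in both, 3.39% of the members beside 3.07% of all genes. In 2 the controls rose and BkF fell, beside 0.0731% of all genes. Both ended within 2-fold in 3 members, beside 86.8%, and PRTG alone fell in both, beside 0.684%. The BkF value at 96 hpf was the lowest of the 8 values in 53 members, beside 20.1% of all genes. Under BkF the value was lower at each age than at the one before in 38 members, beside 14.6% of all genes, and lower at 96 than at 72 hpf in 58, beside 47.4%. Over that last step the controls went up in 41 members, as they did in 52.7% of all genes. The rule used all 8 values and asks for the lowest ratio at 96 hpf. These counts follow from it in part and are a description only.

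**Figure D2:**
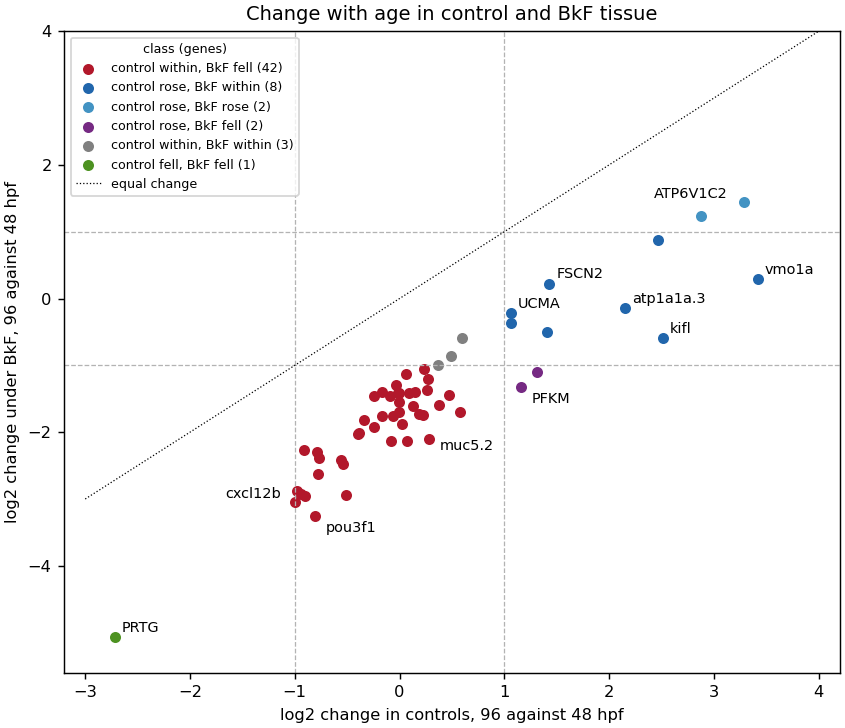
Each point is 1 of 58 members, placed by its log2 change from 48 to 96 hpf in the controls (horizontal axis) and under BkF (vertical axis); dashed lines mark a change of 2-fold and the dotted line equal change. Every point lies below the dotted line, which the rule fixes. Of the points drawn, 42 lie where controls ended within 2-fold of their 48 hpf level and BkF fell.

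Genes with another time course differed in some of these changes and matched in others. In the 243 genes lower at least 2-fold at all 4 times, the median ratio went from -1.44 at 48 hpf to -1.79 at 96 hpf. Their controls rose in 27.6% and BkF fell in 16.5%. In the 81 genes with a ratio of -1.5 or less at 96 hpf and above -0.5 at the other ages, BkF fell in 95.1%, and the controls fell in 19.8%. Controls ended within 2-fold of their 48 hpf level while BkF fell in 72.8% of these 81, beside 72.9% of the members. Of the 535 genes with a ratio of -1.5 or less at 96 hpf, members included, controls rose in 21.5%, beside 20.3% of the members. The reverse rule, an increase that grows by the same limits, was met by 36 genes. Symbols beginning like those of collagen, Hox, troponin, ion channel, solute carrier, keratin and forkhead genes were left out of some sets. They were left out of the 243, 81 and 36 genes, as of the members, but not of the 535. All these sets are drawn from the same ratios, so the shares are set side by side without a test.

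The most numerous named members were genes of the developing nervous system, 10 in all. The gap to the control opened at different ages in the 3 hairy-related repressors. The Notch target her4.4 stood at 285, 263, 166 and 199 normalized counts in the controls from 48 to 96 hpf, and at 301, 262, 111 and 38.4 under BkF. Both series were about equal until 60 hpf, after which both came down and the BkF value ended 5.08-fold below the control at 96 hpf. Its near copy her4.1 had 301, 419, 260.0 and 285 in the controls and 285, 265, 133 and 63.9 under BkF. Here BkF lay below the control from 60 hpf on. The related gene her8a had 866, 689.6, 371 and 505 in the controls and 705, 454, 229.6 and 113 under BkF, and was lower under BkF at each age. On the GRCz12tu assembly her4.1 and her4.4 lie 2 protein-coding genes apart on chromosome 23, and Salmon shares reads between such near-identical copies, so the split of reads among the her4 genes is uncertain.

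Factors of neural progenitors and of differentiating neurons followed. The POU factor gene pou3f1 had 1537, 932, 478 and 876 in the controls and 1646, 992, 315 and 172 under BkF. Its level came down in both groups until 72 hpf, and from there the control went up while BkF went on down, to a 5.07-fold gap. OLIG2, a factor of motor neuron and oligodendrocyte progenitors, had 579, 379.6, 256 and 334 in the controls and 459.8, 275, 168 and 92.7 under BkF. INSM1 (ENSDARG00000053301), a zinc-finger gene of newborn neurons, had 451, 428, 246 and 311 against 510.0, 394, 151 and 90.8. Both repeated the turn of the controls between 72 and 96 hpf and the continued decline under BkF. ISL1, a LIM-homeodomain gene of motor and sensory neurons, had 716, 939, 708 and 714 in the controls and 757, 959, 491 and 232 under BkF. It was a little higher under BkF at 48 and 60 hpf and 3.06-fold lower at 96 hpf.

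PRTG, which encodes protogenin, a membrane protein of the early neural tube, was the member with the steepest fall in the controls. It went from 796 to 206, 133 and 120.1 there and from 869 to 121, 72.1 and 24.9 under BkF. The BkF tissue thus started at the control level and lost this transcript further, by 5.07 on the log2 scale against 2.72 in the controls, both as falls from 48 to 96 hpf. The SoxC gene sox12 (356 in the control and 109 under BkF at 96 hpf) and the Iroquois gene IRX5 (1287 and 453) completed the group. Their controls were higher at 96 than at 48 hpf by 0.28 and 0.36 (log2).

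**Figure D3:**
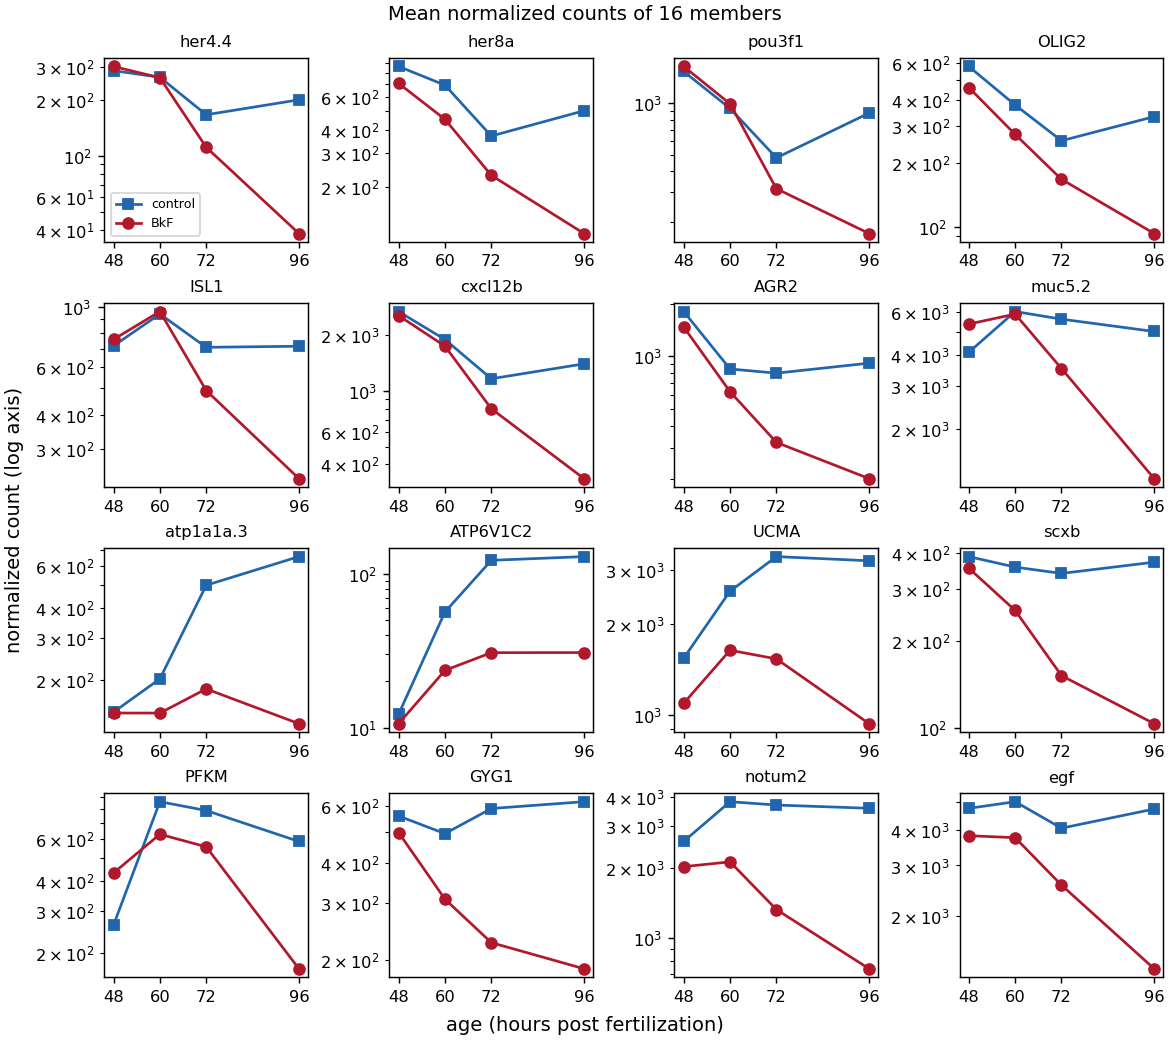
Mean normalized counts (vertical log axis, scaled per panel) of 16 members are drawn against age in hours post fertilization in control (blue squares) and BkF (red circles) samples, 1 value per point. her4.4, pou3f1 and ISL1 start at about the control level, and at 96 hpf the BkF value of every panel is at least 3.06-fold below its control.

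The neural genes around these members were counted in 5 lists. They were hairy-related and Hes factors, Notch and Delta genes, proneural and differentiation genes, spinal cord genes, and SOX and POU genes. The spinal cord list holds genes of neurons such as ISL1 beside genes of progenitors such as OLIG2. The SOX and POU list also holds other genes, such as PRTG, GFAP and the ZIC genes. These lists were written after the member names and the ratios of many of these genes had been seen, so they describe the members' surroundings and support nothing. Of 119 listed genes with a mean of 50 or more, 1 was lower under BkF at 48 hpf, 4 at 60 hpf, 9 at 72 hpf and 64 at 96 hpf. The last number is 53.8%, beside 7.0% of all genes. It includes the 10 members of these lists, which the rule makes lower at 96 hpf. The median ratio of the 119 was -0.00, -0.03, -0.21 and -1.09, and with equal totals 0.18, 0.16, -0.01 and -0.92. Of the 119, 105 had a lower ratio at 96 than at 48 hpf, as did 48.6% of all genes. At 96 hpf SOX14 and 1 of 2 MSI2 genes (ENSDARG00000033901) were at least 2-fold higher.

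The deficit was uneven among these lists. Of 17 proneural and differentiation genes 15 were lower at 96 hpf (median ratio -1.77), and of 17 hairy-related and Hes factors 11 were (-1.46). Of 34 spinal cord genes 22 were lower (-1.22), and of 34 genes in the SOX and POU list 13 were (-0.57). Of 17 Notch pathway genes 3 were lower (-0.10, or 0.06 with equal totals). Those 3 were ligand genes of the Delta type, namely DLL1 (ENSDARG00000010791, -2.20), dlb (-2.12) and DLL1 (ENSDARG00000020219, -1.68). The receptor genes NOTCH1, NOTCH3 and notch2 had ratios of -0.75, -0.29 and -0.10, the last of these within the shift between scalings.

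Most genes with a ratio of -1.5 or less at 96 hpf were not members. Over all genes 535 had such a ratio, and 59 of them were members. Of 42 neural list genes with such a ratio, 10 were members and 32 were not. Of those 32, 26 broke the order of the ratios, 24 lay above the limit at 72 hpf and 4 were already too low at 48 hpf, with some failing on more than one count. The proneural factor gene neurog1 (-3.17) broke the order alone. NEUROD4, a factor of neuronal differentiation, went from 0.01 at 48 hpf and -0.02 at 72 hpf to -3.08 at 96 hpf. The copies her4.5 (-2.89) and her4.2 (-2.27) were also low at 96 hpf without being members.

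**Figure D4:**
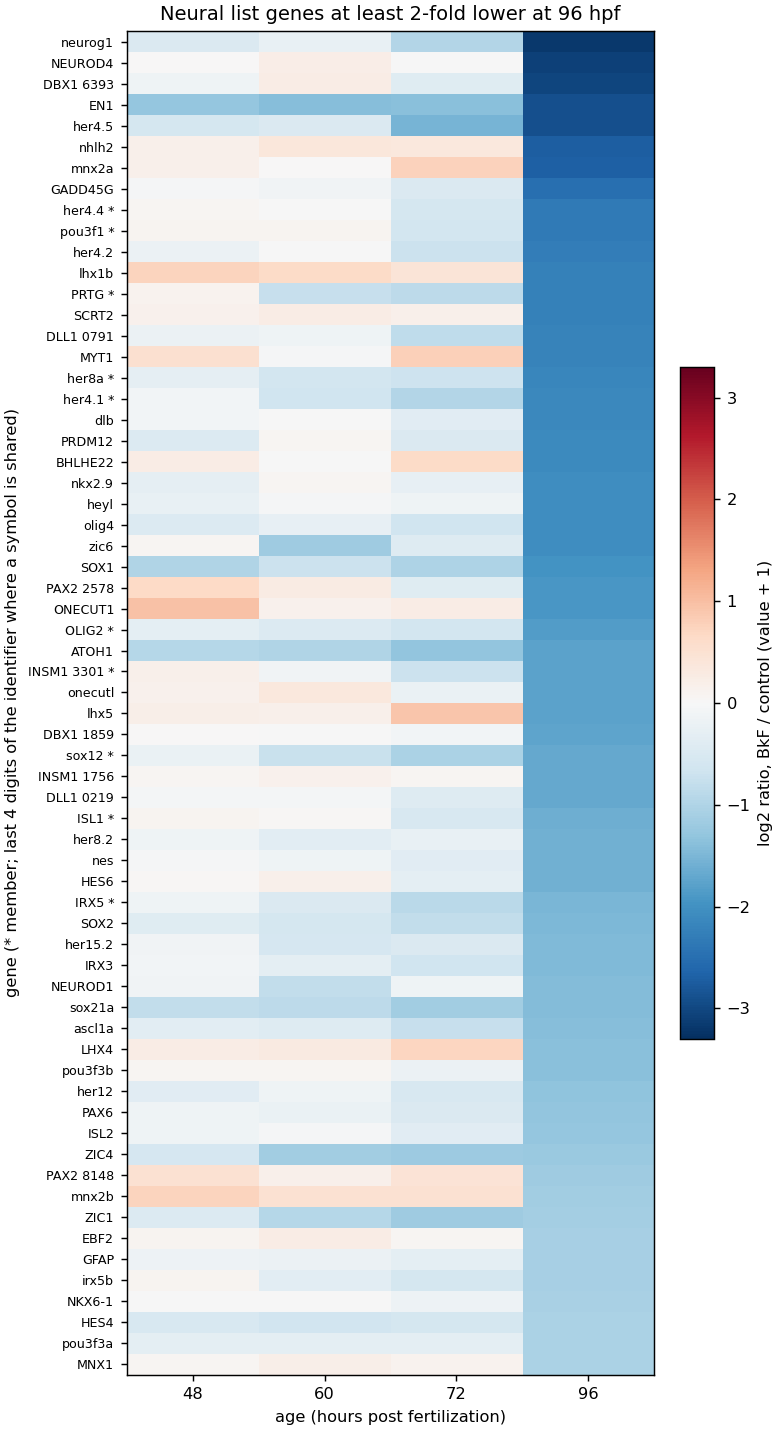
The log2 ratio of BkF to control (colour, blue lower and red higher under BkF) is shown at 4 ages for the 64 neural list genes that were at least 2-fold lower at 96 hpf, sorted by that ratio, with members marked by an asterisk. The right column is blue by this choice of genes, and the other columns are mostly pale, since only 1, 4 and 9 of the 119 listed genes were at least 2-fold lower at 48, 60 and 72 hpf.

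Broader marker lists of the nervous system and head, which overlap with this group, were set beside it. At 96 hpf 7.0% of all genes were lower. The share of all genes that was higher is not given, here or for the lists below. The neuron and synapse list holds the member ISL1 and shares 3 genes with the neural lists, and the myelin and glia list holds OLIG2 and her4.1 and shares 4. Of 54 genes of neurons and synapses 12 were lower and 4 higher at 96 hpf, with a median ratio of 0.34 at 72 hpf and -0.53 at 96 hpf. Their level, summed over all 71 matched genes, ranged from 41139 to 50514 in the controls and from 35388 to 54138 under BkF, with the lowest BkF sum at 96 hpf. Of 20 myelin and glia genes 6 were lower and 1 higher at 96 hpf, with sums of 58844 to 74277 in the controls and 54401 to 63236 under BkF. Of 10 measured brain genes 8 were lower at 96 hpf, with sums of 6132 to 7298 in the controls and 4662 to 5957 under BkF, and 5 of the 10 also stand in the neural lists. Of 64 proliferation genes 1 was lower and 1 higher at 96 hpf, and the median was -0.04, or 0.13 with equal totals. No matched gene of these 4 lists was at 0 in all controls. Their part in the members' deficit was not tested. In bulk tissue, fewer cells of a type and less RNA per cell cannot be told apart.

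Mucus production gave 4 members. The gel-forming mucin gene muc5.2 was at 4118, 6045, 5627 and 5009 in the controls and at 5372, 5901, 3534 and 1253 under BkF. It was higher under BkF at 48 hpf, level at 60 hpf and 3.99-fold lower at 96 hpf. AGR2, a disulfide isomerase gene of mucin-making cells, had 1808, 847, 802 and 915 in the controls and 1473, 628, 322 and 199.8 under BkF. Its level came down most between 48 and 60 hpf in both groups, and from 60 to 96 hpf it went on down under BkF while the control ended a little higher. The sialyltransferase genes st3gal7 (128 in the control and 33.3 under BkF at 96 hpf) and st6galnac1.1 (341 and 104) lay 3.77-fold and 3.25-fold lower at that age.

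Of 25 measured genes in a mucus list, also written after values had been seen, 9 were lower and 2 higher at 96 hpf. The 9 are 36%, beside 7.0% of all genes, and the list's median was -0.24. They include the 4 mucus members, which the rule makes lower at 96 hpf. The higher genes were muc13a (2.60), a mucin gene, and GCNT3 (4.84), a glycosyltransferase gene, and the list's summed level at 96 hpf was 101964 in the control and 102021 under BkF. The second mucin gene, muc5.1, had a ratio of -2.32 already at 48 hpf and is no member. Among epidermal and periderm genes, 5 of which the mucus list shares, 16 of 48 were lower and 2 higher at 96 hpf, and 9 were lower at 48 hpf, with medians of -0.55 and -0.45. These counts of lower genes stand beside 7.0% of all genes at 96 hpf and 2.75% at 48 hpf. The epidermal count at 96 hpf includes the members muc5.2 and AGR2. The summed level of the epidermal list ranged from 7093770 to 8649540 in the controls and from 1973550 to 3718260 under BkF, below the controls at every age. Its part in the mucus members' deficit was not tested.

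Another group of members was set apart by rising controls. ATP6V1C2, a subunit of the proton pump, rose from 12.3 to 56.5, 122 and 129 in the controls and from 10.7 to 23.6, 30.8 and 30.8 under BkF. The sodium pump gene atp1a1a.3 rose from 146 to 202, 498 and 656 in the controls, and under BkF stood at 145, 145, 183 and 131. Both pump genes began level with the controls, and the gap opened as the controls climbed. vmo1a, named for a protein of the egg's vitelline membrane, showed the largest control rise among the members, from 12.2 to 88.1, 115 and 139.9. Under BkF it was at 14.3, 26.6, 32.6 and 17.6, which left it 7.56-fold lower at 96 hpf.

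The members with rising controls also included UCMA, FSCN2 and kifl. FSCN2 (ENSDARG00000074396), a fascin gene for bundling actin filaments, went from 151 to 409.7 in the controls and from 118 to 138 under BkF. The gene kifl went from 26.6 to 157 in the controls and from 70.3 to 46.3 under BkF. It was above the control at 48 hpf and below it at the other ages. In a list of 34 genes of sodium and proton pumps, also written after values had been seen, 5 were lower and 0 higher at 96 hpf. The 5 are 14.7%, beside 7.0% of all genes, and the list's median was 0.14. They include the 2 pump members, which the rule makes lower at 96 hpf. Of 28 ionocyte genes, 11 of which the pump list shares, 11 (39.3%) were lower and 2 higher at 96 hpf with a median of -0.43. The member atp1a1a.3 is among the lower ionocyte genes. The ionocyte sums were 69124 to 120031 in the controls and 63911 to 92539 under BkF, and their part in the pump members' deficit was not tested.

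Genes of tendon and cartilage and of secreted signal antagonists made up 4 members. UCMA, which encodes a small cartilage matrix protein, was at 1541, 2555, 3318 and 3215 in the controls and at 1096, 1636, 1533 and 939.8 under BkF. Its level went up in both groups until 60 hpf, after which the BkF level turned down. The tendon factor gene scxb was nearly level in the controls, at 388, 358, 340.1 and 372, and came down under BkF from 355 to 254, 152 and 104. The gene notum2 belongs to the Notum family of enzymes that inactivate Wnt ligands. It had 2588, 3824, 3699.8 and 3584 in the controls and 2019, 2116, 1324 and 739 under BkF, a 4.84-fold gap at 96 hpf. SOSTDC1 (ENSDARG00000068892), a secreted antagonist of BMP and Wnt signals, was low throughout, at 76.1 in the control and 22.8 under BkF at 96 hpf.

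A list of 37 genes of tendon and joint was also written after values had been seen. It also holds the cartilage gene UCMA and the signal antagonist genes notum2 and SOSTDC1. In it 14 genes were lower and 2 higher at 96 hpf. The 14 are 37.8%, beside 7.0% of all genes. They include the 4 members UCMA, scxb, notum2 and SOSTDC1 (ENSDARG00000068892), which the rule makes lower at 96 hpf. The list's median was -0.13, -0.38, -0.56 and -0.32 from 48 to 96 hpf, so it was lowest at 72 hpf. With equal totals it was -0.15 at 96 hpf. Among cartilage and bone genes, 12 of which that list shares, 14 of 47 (29.8%) were lower and 2 higher at 96 hpf, also with a median of -0.32. The member UCMA is among the lower ones. The cartilage and bone sum was 843279 in the control and 669543 under BkF at 48 hpf, and 881467 and 469272 at 96 hpf. Its part in these members' deficit was not tested.

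Sugar metabolism gave 5 members. PFKM (ENSDARG00000060797), a muscle phosphofructokinase gene of glycolysis, had 263, 862, 792 and 588 in the controls and 434, 630.2, 558 and 172 under BkF. It was higher under BkF at 48 hpf and lower from 60 hpf on. GYG1 (ENSDARG00000059391), a glycogenin gene, held at 559, 493, 589 and 619 in the controls and declined under BkF from 497 to 309, 227 and 188. PPP1R3C (ENSDARG00000014554) targets a phosphatase to glycogen, and had 866 in the control and 304 under BkF at 96 hpf. FBP2, a fructose bisphosphatase gene, had 68.3 and 18.5, and GPD1 (ENSDARG00000043180), a glycerol phosphate dehydrogenase gene, had 1213 and 418. These 3 also lay below the control at 60 and 72 hpf. Second genes with the symbols PFKM, GYG1, GPD1 and PPP1R3C are no members. Their ratios at 96 hpf were -0.59 (ENSDARG00000014179), -0.54 (ENSDARG00000011934), -0.49 (ENSDARG00000043701) and -0.92 (ENSDARG00000071005). In the control at 96 hpf the second PFKM and GYG1 genes stood at 927 and 2945, above the members.

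In a list of 57 genes of glycogen and glycolysis, also written after values had been seen, 13 were lower and 3 higher at 96 hpf. The 13 are 22.8%, beside 7.0% of all genes, and the list's median was -0.43. They include the 5 sugar metabolism members, which the rule makes lower at 96 hpf. The higher genes were eno2 (2.16), PFKP (ENSDARG00000028000, 1.34) and pgam1a (1.05), all of glycolysis. KBTBD13, a kelch gene known from muscle, had 147 in the control and 46.6 under BkF at 96 hpf. The 5 sugar metabolism members had ratios at 72 hpf from -0.50 (PFKM, ENSDARG00000060797) to -1.37 (GYG1, ENSDARG00000059391). Skeletal muscle genes were set beside this group. Their median ratio went from 0.36 at 48 hpf to 0.18, 0.02 and -0.66. At 96 hpf 13 of 65 muscle genes (20%) were lower and 2 higher, with 5 genes shared with the glycogen list. Their summed level was 862417 under BkF against 659304 in the control at 48 hpf, and 472654 against 723743 at 96 hpf. None of the 65 was a member. The troponin genes tnnt2d (-2.07) and tnni1d (-1.51), which are not among the 65, met the limits and were set aside by name. The part of muscle in the sugar metabolism members' deficit was not tested.

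**Figure D5:**
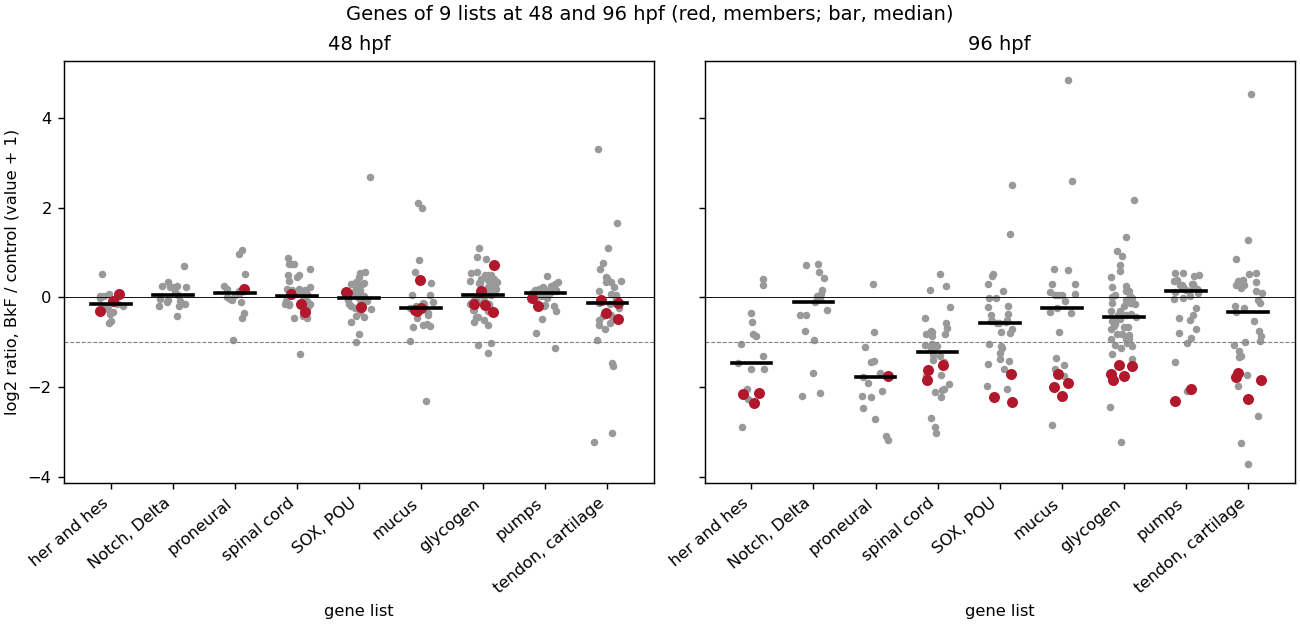
Each point is the log2 ratio of BkF to control of 1 gene with a mean of 50 or more in 9 gene lists, at 48 hpf (left) and 96 hpf (right), with members in red, other genes in grey, the list median as a bar and a dashed line at -1. At 96 hpf the proneural and the hairy-related lists have medians of -1.77 and -1.46, and the pump list has a median of 0.14 with its 2 members at -2.31 and -2.03.

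Genes of secreted signals were among the more abundant members. The chemokine gene cxcl12b, whose product guides migrating cells, had 2691, 1898, 1164 and 1402 in the controls and 2559, 1748, 801 and 335 under BkF. It kept near the control until 60 hpf and was 4.17-fold lower at 96 hpf. The growth factor gene egf was level in the controls, at 4746, 5008, 4048 and 4723, and declined under BkF from 3811 to 3749.9, 2562 and 1309. Its ratio was -0.32 at 48 hpf and -1.85 at 96 hpf, with the largest step in the last interval.

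The other named members were more loosely tied to a tissue by name. They were the cyclin gene ccndx (204 in the control and 61.5 under BkF at 96 hpf), fignl2 (6261 and 2131), inavaa (504 and 135), ftr69 (136 and 41.7) and CHST12 (ENSDARG00000077198), a sulfotransferase gene (108 and 29.1). Their controls stayed within 2-fold between 48 and 96 hpf, and their ratios at that age ran from -1.55 to -1.89.

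Near relatives of the members, the her4 genes aside, varied in their course. For 11 members a copy with the same symbol or a paralog name was measured with a mean of 50 or more, and 0 of these 11 copies met the rule, which 0.308% of all genes met. At 96 hpf 4 copies had a ratio of -1 or less, beside 7.0% of all genes. Another 4, the second PFKM, GYG1, GPD1 and PPP1R3C genes, lay between -1 and 0, and 3 lay above 0. CXCL12 (-2.05) and the second INSM1 gene (ENSDARG00000091756, -1.70) were low like their relatives. The second SOSTDC1 gene (ENSDARG00000056021, -1.33) and irx5b (-1.09) were low as well. The scxb relative SCX had a ratio of 0.14, the second CHST12 gene (ENSDARG00000028786) 0.29 and inavab 0.66. Reads of near-identical copies may have been split among them.

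Of the 22 members without a gene name, ENSDARG00000088485 was listed at 0 under BkF at 96 hpf. It had 1517, 1058, 1315 and 1469 in the controls and 1284, 472 and 434 under BkF at the other ages, and no fold is given for it. The next lowest was ENSDARG00000091322, with 2981, 2138, 1247 and 1599 in the controls and 2360.3, 1571, 839 and 304 under BkF. The most abundant member of all was ENSDARG00000074745, at 22233, 28654, 24627 and 25996 in the controls and 17418, 22324, 15109 and 5222 under BkF. In all 3 the ratio to the control dropped most between 72 and 96 hpf.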

How the data were processed

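Per the labels, libraries were stranded and read as single-end reads of 100 bp, 32 in all. Per the submitters' processing notes, the authors used FastQC, Trimmomatic, Salmon and DESeq2 with the build Zv9 (their versions and settings are not given in the sources used here). What was deposited as signal is the authors' normalized counts, averaged over 4 replicates, so depth and replicate spread are unknown and no count test was run. The table of the series and the files per sample differed in 0 of 194760 values.

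Ratios, changes and counts were computed with pandas 2.3.3 and numpy 2.4.6 in Python 3.11.15 on log2(value + 1), which understates changes of low genes. Figures were drawn with matplotlib 3.10.9. The rule was checked on simulated data.

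The members and lists were chosen with earlier results of these data known, and 9 lists were added after the values of many of their genes were seen. Members with a gene name were named by lowest ratio or highest control level at 96 hpf, largest change with age, place in a list, nearness to the limit, or role, and others of these 37 were added after their values were seen. One named member is not reported here. Symbols came from the name table, which held one for 18028 of 24345 identifiers. Of the members, 8 share a symbol with another identifier, and the identifier is then printed. List genes were matched by their own symbol or, in the 23 tissue and pathway lists, by the symbol without its paralog letter. Gene order came from RefSeq annotation of GRCz12tu, in which 28 members matched 1 gene, and no coordinates were used. Promoter motifs were not analysed here. Alternatives were pseudocounts, filters on the mean, scalings, limits at 96 hpf and leaving out each age.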

Additional observations from a re-analysis of the deposited data

Results flagged for a closer look

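In 3 members the BkF tissue stood above the control at 48 hpf by at least 0.5 (log2) and below it at 96 hpf. The log2 ratio at 96 hpf minus that at 48 hpf was -2.48 in PFKM (ENSDARG00000060797), -3.1 in kifl and -2.42 in si:ch211-89o9.4. With 1 sample per group and age this difference between ages was not tested, and the rule asks for part of it.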

How the results depend on the processing

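The count of 59 members depended on the limits: it was 103 with a limit 0.25 (log2) higher at 96 hpf, 35 with one 0.25 lower, 113 without the 72 hpf samples, 239 without the 48 hpf samples and 1093 without the 96 hpf samples, settings that drop or move a condition of the rule. With the same total in every sample, which moves the median of all genes by 0.183 at 48 hpf and 0.164 at 96 hpf, the rule gave 42 genes, 28 of them among the 59, and the median ratio of the 59 at 48 hpf turned to 0.0132. Quantile normalization gave 53 genes (45 shared) and a pseudocount of 10 gave 54 (50 shared). A mean of 200 or more left 41 members, with 7 instead of 12 whose controls rose. Of the neural list genes 9 were lower at 72 hpf in place of 64 at 96 hpf. The count at 96 hpf was 55 with the same total, 61 with quantile normalization and 60 of 115 without the her4 copies. These 4 alternatives were chosen after seeing the data. In all 249 comparisons over 37 members with a gene name, the fold of BkF to control at 96 hpf stayed within 1.5-fold of its main value. This limit was used for want of a replicate spread. Many of the 249 could not move, or could move only a little. The filters on the mean, 37 comparisons at 10 or more and 27 at 200 or more, leave each ratio as it was. The 37 with median ratio scaling repeat a scaling that the values already had. The 37 with the same total shift each log2 ratio by about 0.164, well inside the limit. The 37 with a pseudocount of 0.5 hardly change counts of this size. No paired analysis was possible because each condition has 1 value per gene. Replicates could not be left out for the same reason.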
